A study of Homo sapiens with 4 samples.

Results

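The genes of the proteasome were followed in A549 cells that carried an FCN3 virus or a control virus. 40 genes were taken by symbol from the deposited gene tables, which list 25192 genes: 7 subunits of the α ring (PSMA1 to PSMA7) and 7 of the β ring (PSMB1 to PSMB7) of the 20S core, 6 ATPases (PSMC1 to PSMC6) and 14 other genes named for the 19S regulator (PSMD1 to PSMD14), the activators PSME1 to PSME4, the inhibitor PSMF1, and NFE2L1, a transcription factor of proteasome genes. All 40 symbols were found, and all 40 passed the filter on low counts that left 14099 genes for testing. A549 is a human lung adenocarcinoma line with mutant KEAP1, the adaptor that keeps the NFE2L2 protein low. The 2 control libraries came from A549 cells transduced with the empty retrovirus (EV), whose pLZRS-IRES-GFP vector expresses GFP alone. The 2 FCN3 libraries came from A549 cells transduced with the same vector carrying V5-tagged full-length FCN3, a secreted ficolin of the lectin complement pathway. RNA was taken 48 h after infection in both groups. GFP and the retrovirus are shared by all 4 libraries, FCN3 is driven by the vector and not by its own promoter, and the labels do not say whether replicates were separate transductions, so p-values measure only the spread between these libraries, which may be technical.

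The 26S proteasome degrades proteins that carry ubiquitin chains. Its 20S core is a barrel of stacked α and β rings, in which PSMB5, PSMB6 and PSMB7 hold the chymotrypsin-like, caspase-like and trypsin-like active sites, and its 19S regulator binds the chain, removes it and feeds the unfolded protein into the core through a ring of ATPases. Proteins that fail to fold in the endoplasmic reticulum (ER) are drawn back into the cytosol by ER-associated degradation (ERAD) and end at the same proteasome. When proteasome activity falls short, NFE2L1, which is made in the ER membrane, is extracted by VCP, edited by NGLY1 and cut by DDI2, and then binds antioxidant response elements in proteasome gene promoters.

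The libraries held 16353554 to 35733734.8 expected counts, and replicate 1 was the deeper library of each group. FCN3 had expected counts of 1 and 0 in the EV libraries and of 722388 and 448352 in the FCN3 libraries. All 6 epithelial markers were at 1 TPM or more in every library, as were all 4 genes known to be high in KEAP1-mutant lines, whereas the 4 alveolar markers reached at most 0.06 TPM and CDKN2A, which A549 lacks, at most 0.22. Endothelial markers reached at most 0.07 TPM. Of the leukocyte markers only CD14 passed 1 TPM (at most 1.99), and of the fibroblast markers only COL1A1 (at most 8.12). The lowest epithelial marker, EPCAM, was at 1.09 to 3.65 TPM and below COL1A1 in every library. A fall in the number of cells and a fall in RNA per cell cannot be told apart in such bulk libraries, which compare shares of the total.

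Proteasome transcripts stayed within a narrow band in FCN3 cells. In edgeR's quasi-likelihood test with Benjamini-Hochberg adjustment over all tested genes, 0 of the 40 genes passed an adjusted p of 0.01, beside 0.965% of all tested genes (0.738% higher, 0.227% lower). 6 of the 40 were under 0.05 without adjustment, beside 25.1% of all genes, and DESeq2 called 0 of the 40, beside 7.64%. The median log2 fold change of FCN3 over EV (positive where FCN3 was higher) was -0.06 over the 40 genes (quartiles -0.14 and 0.05, range -0.33 to 0.33) and 0.02 over all tested genes (quartiles -0.20 and 0.26). 37 of the 40 (92.5%) lay within 0.25 of no change on the log2 scale, beside 54.2% of all tested genes, and their median SE of 0.09 was below the 0.14 of all genes. All tested genes include genes at far lower counts than these 40, and genes of like level were not taken as a background. The 95% intervals of the 40 reached from -0.62 to 0.64, so that in none of them did the interval reach a change of 1 on the log2 scale. The small median itself moved with single libraries: it was -0.02 without EV replicate 1, -0.10 without EV replicate 2, -0.11 without FCN3 replicate 1 and -0.01 without FCN3 replicate 2, and 0 of the 40 genes were called in any of these.

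The replicate number was also fitted as a block, which compares each FCN3 library with the EV library of its number. 12 of the 40 (30%) then passed, a smaller share than the 36.2% of all tested genes. 4 rose, NFE2L1, PSMA5, PSMB7 and PSMD7, against a background of 19.1% called higher. 8 fell, PSMA2, PSMA3, PSMA4, PSMB3, PSMC3, PSMD1, PSMD6 and PSME3, against 17.1% called lower. All 40 of the blocked 95% intervals stayed within 0.5 of no change on the log2 scale (lowest bound -0.44, highest 0.43), beside 56.1% of all genes. That background includes genes at far lower counts. The blocked fit leaves few degrees of freedom in 4 libraries, so these intervals and the adjusted p-values rest largely on variance shared across genes. The labels do not say that equal replicate numbers mark pairs. DESeq2 with the block called 3 of the 40, NFE2L1 higher and PSMD6 and PSME3 lower, beside 16% of all genes. The changes that passed with the block were therefore small, and which of them passed differed between the tools.

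**Figure D1:**
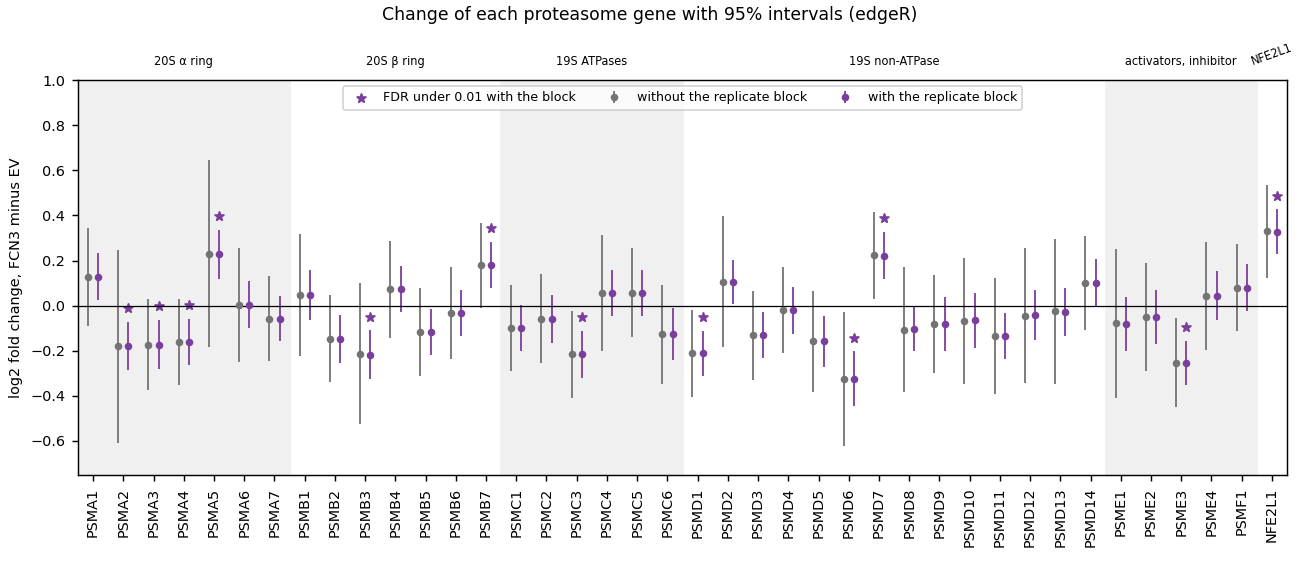
log2 fold change of FCN3 over EV (y axis) for each of the 40 proteasome genes (x axis, grouped by role), as points with the 95% interval of the edgeR fit without the replicate block (grey) and with it (purple), and a star over the 12 genes that passed with the block. The values run from -0.33 for PSMD6 to 0.33 for NFE2L1, and all 40 blocked intervals lie within 0.5 of 0.

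NFE2L1, the factor that acts on proteasome gene promoters, had the largest log2 fold change of the 40 over all 4 libraries. Without the block, PSMA5 exceeded it when EV replicate 1 was left out (0.40, beside 0.32) or FCN3 replicate 2 (0.40, beside 0.27). NFE2L1 was at 0.34 without EV replicate 2 and 0.38 without FCN3 replicate 1. NFE2L1 lies on the plus strand of chromosome 17 of GRCh37, from 46125691 to 46138907. Its level was 127 and 129 TPM in EV replicates 1 and 2, and 143 and 157 TPM in FCN3 replicates 1 and 2, so that the groups did not overlap. The log2 fold change was 0.33 ± 0.08 (SE, 95% interval 0.12 to 0.54), with an adjusted p of 0.077 in edgeR. It passed with the block (adjusted p = 1.8e-07 in edgeR, 3.8e-05 in DESeq2), at 0.29 in the replicate 1 libraries and 0.37 in the replicate 2 libraries on the log2 CPM scale. RNA levels do not show whether the NFE2L1 protein was extracted and cut.

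Because NFE2L1 and NFE2L2 bind antioxidant response elements, the promoters of the members were searched for that element, from 250 bases before to 50 after each gene start in RefSeq on GRCh38.p14. A promoter was found for 35 of the 40 genes. The letters TGACNNNGC, read on both strands, occurred in 12 of the 35 (34.3%), beside 16.1% of 27305 genes with a promoter. The windows of 5 holders are shown 5′ to 3′ on the strand of the gene, in lower case with the element in capitals and 16 bases on each side. PSMA4 and PSMB3 fell with the block, whereas PSMC5, PSMD12 and PSME4 passed in no fit:
PSMA4 (chr15:78540644-78540684, plus strand): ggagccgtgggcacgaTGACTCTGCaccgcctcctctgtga
PSMB3 (chr17:38752621-38752661, plus strand): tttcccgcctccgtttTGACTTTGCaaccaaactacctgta
PSMC5 (chr17:63827648-63827688, plus strand): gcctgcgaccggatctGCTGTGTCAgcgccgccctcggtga
PSMD12 (chr17:67366718-67366758, minus strand): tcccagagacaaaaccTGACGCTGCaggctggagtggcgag
PSME4 (chr2:53971003-53971043, minus strand): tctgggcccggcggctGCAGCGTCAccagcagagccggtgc
The element began 126 bases before the start of PSMA4, 104 before PSMB3, 57 before PSMC5, 165 before PSMD12 and 34 before PSME4, and in PSMC5 and PSME4 it reads on the opposite strand. Among the members other than NFE2L1, the 12 holders had a median log2 fold change of -0.08 and the 22 genes without the letters one of -0.08 as well. The promoter window of NFE2L1 does not hold them.

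Other elements were searched in the same windows. CCAAT occurred in 18 of the 35 promoters (51.4%, beside 39.7% of all genes), and its 17 holders other than NFE2L1 had a median log2 fold change of -0.13, beside -0.04 for the 17 others. GGGCGG, the GC box, occurred in 24 (68.6%, beside 48.3%), with medians of -0.04 in 23 holders and -0.13 in 11 others. The ER stress response element, CCAAT followed after a 9-base gap by CCACG, was in 0 of the 35 promoters, beside 0.0916% of all genes, and TGATGNAA, the core of the amino acid response element, was in 1, that of PSMF1, beside 4.46%. A match is a run of letters and not a bound site, the ER stress response element itself begins with CCAAT, and the absence of a match says only that the letters are not in this window.

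Proteasome genes were abundant in both groups. The 39 genes other than NFE2L1 together made up 1.00% and 0.951% of all TPM in EV replicates 1 and 2, and 0.899% and 0.867% in FCN3 replicates 1 and 2. Both FCN3 libraries were thus below both EV libraries on this scale, in which FCN3 itself took 41620 and 44730 TPM. With FCN3 left out and each library rescaled, the sums were 10030 and 9509 TPM in EV cells and 9384 and 9073 TPM in FCN3 cells. On the TMM-normalized CPM scale, which does not divide by gene length, the sums were 7464 and 7145 in EV and 7252 and 6904 in FCN3, and here the groups overlapped. Within a replicate number the FCN3 sum was 0.972 and 0.966 of the EV sum in CPM.

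**Figure D2:**
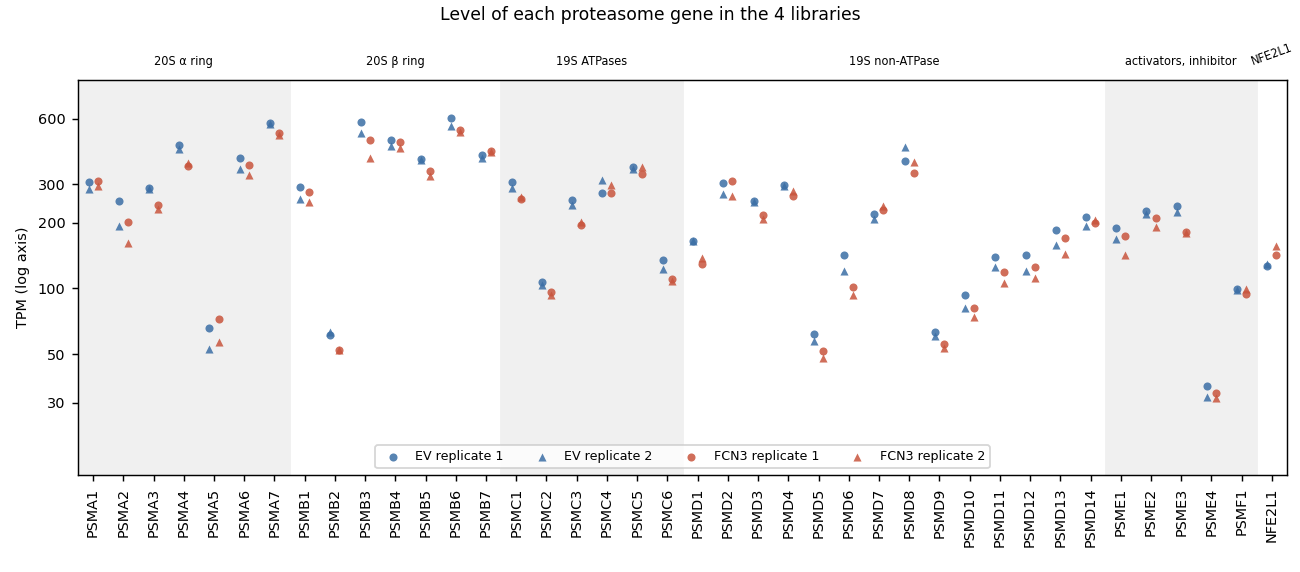
TPM (y axis, log scale) of the 40 proteasome genes (x axis, grouped by role), with EV in blue, FCN3 in red, replicate 1 as circles and replicate 2 as triangles. The 4 points of a gene lie close together in comparison with the distance between genes, from about 31.5 TPM for PSME4 to 602 TPM for PSMB6.

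The levels differed far more between subunits than between groups, although each subunit of a ring occurs in equal numbers in the finished particle. The median level of the 14 core subunits was 394 and 371 TPM in EV and 354 and 330.2 TPM in FCN3. That of the 20 genes named for the 19S regulator was 198 and 179 TPM in EV and 183 and 172 TPM in FCN3. The core to regulator ratio of these medians was 1.99 and 2.07 in EV and 1.93 and 1.92 in FCN3. The 20 genes include PSMD5, PSMD9 and PSMD10, chaperones that leave the particle. They do not include ADRM1 and SHFM1, which were listed with the further subunits and bound factors. PSMB6, the caspase-like subunit, had the highest mean level of the 40, and PSME4, the PA200 activator, had the lowest. The low core genes PSMA5 and PSMB2, at 52.6 to 72.3 and 52.0 to 62.9 TPM, were those with the longest deposited effective lengths of the core (3653 and 4571 bases, beside 584 to 1296 for the 12 others), and TPM divides by that length. The lowest expected count of any member in any library was 1041, so that all 40 were measured well above the depth limit.

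In the α ring, whose outer pores gate the core, 3 of 7 genes had a log2 fold change above 0 and 4 below, with a median of -0.06. None passed without the block, and with it PSMA5 rose and PSMA2, PSMA3 and PSMA4 fell (57.1%, beside 36.2% of all tested genes). PSMA5 was at 65.7 and 52.6 TPM in EV and 72.3 and 56.7 TPM in FCN3. The groups overlapped, since replicate 1 exceeded replicate 2 in both. The log2 fold change of PSMA5 was 0.23 ± 0.16 (SE, adjusted p = 0.45 in edgeR), and the blocked fit gave 0.23 ± 0.05 (adjusted p = 0.00046). Without the block its value was 0.40 without EV replicate 1 or FCN3 replicate 2, 0.08 without EV replicate 2 and 0.03 without FCN3 replicate 1. PSMA2 behaved alike in the other direction, at 251 and 192 TPM in EV and 202 and 162 TPM in FCN3, with a log2 fold change of -0.18 ± 0.17 that had an SE of 0.05 with the block. PSMA3 and PSMA4, in contrast, did not overlap between the groups: PSMA4 was at 454 and 434 TPM in EV and 364 and 377 TPM in FCN3. PSMA1, at 307 and 284 TPM in EV and 309 and 294 TPM in FCN3, had a log2 fold change of 0.13 ± 0.09 and passed in no fit (adjusted p = 0.42, 0.036 with the block, in edgeR). Without the block PSMA1 was at 0.19 without EV replicate 1 and 0.07 without EV replicate 2. PSMA6 and PSMA7 had log2 fold changes of 0.00 and -0.06.

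The β ring carries the proteolytic sites, and its 3 catalytic members did not move together. PSMB5, the chymotrypsin-like subunit and the main target of bortezomib, was at 392 and 389 TPM in EV and 344 and 328 TPM in FCN3. Its log2 fold change was -0.12 ± 0.08 (95% interval -0.31 to 0.08), and it passed in neither fit of edgeR (adjusted p = 0.41, or 0.059 once blocked). PSMB6 was at 602 and 557 TPM in EV and 531 and 522 TPM in FCN3, but its log2 fold change on TMM-normalized counts was -0.03 ± 0.08 (95% interval -0.24 to 0.17), and it turned to 0.03 without EV replicate 1. PSMB7, the trypsin-like subunit, was at 407 and 397 TPM in EV and 425 and 422 TPM in FCN3, with no overlap. Its log2 fold change of 0.18 ± 0.08 did not pass without the block (adjusted p = 0.22 in edgeR), and PSMB7 rose with it (adjusted p = 0.0031). The deposited expected counts of PSMB7 were fractional in EV replicate 2 (3087.28) and in FCN3 replicates 1 and 2 (7237.15 and 4147.9). Whether the changes of PSMB5, PSMB6 and PSMB7 differed from each other was not tested.

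Of the non-catalytic β subunits, PSMB3 was at 578 and 517 TPM in EV and 481 and 397 TPM in FCN3. It had the lowest value of the ring over all 4 libraries, a log2 fold change of -0.21 ± 0.13 (adjusted p = 0.36 in edgeR), and it fell with the block (-0.22 ± 0.05, adjusted p = 0.00068), by more in the replicate 2 libraries (-0.29 in log2 CPM) than in the replicate 1 libraries (-0.15). Without the block it was -0.12 without EV replicate 1, -0.37 without FCN3 replicate 1 and -0.07 without FCN3 replicate 2. PSMB2 had a log2 fold change of -0.15, and PSMB1 and PSMB4 were at 0.05 and 0.07. Over the ring the median was -0.03, with 1 gene called higher and 1 called lower with the block (28.6%, beside 36.2% of all tested genes).

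Among the 6 ATPases that unfold substrates, PSMC3 alone passed in the blocked fit (16.7%, beside 36.2% of all tested genes). It was at 254 and 241 TPM in EV and 196 and 201 TPM in FCN3, clearly apart. Its log2 fold change was -0.22 ± 0.08 (adjusted p = 0.16 in edgeR, 0.00055 with the block). PSMC1, PSMC2 and PSMC6 had log2 fold changes of -0.10, -0.06 and -0.13, and PSMC4 and PSMC5 of 0.05 and 0.06, so that the list had a median of -0.08. Exons of PSMC2 overlap those of PMPCB on the same strand, and exons of PSMC1 and PSMC5 overlap genes on the other strand. The deposited expected counts of these 3 genes were whole numbers in every library.

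The 14 genes of the non-ATPase group include lid and base subunits, which hold the ubiquitin receptors and the deubiquitinase, and the chaperones PSMD5, PSMD9 and PSMD10, which assemble the base and leave it. 3 were above 0 and 11 below, with a median of -0.07. With the block 1 rose and 2 fell (21.4%, beside 36.2% of all tested genes). PSMD6, a lid subunit, had the lowest log2 fold change of the 40 over all 4 libraries. It went from 143 and 119.5 TPM in EV to 102 and 93.1 TPM in FCN3. The groups did not overlap, and the log2 fold change was -0.33 ± 0.12 (95% interval -0.62 to -0.03). It was -0.19 without EV replicate 1, where PSME3 and PSMD1 were lower (-0.21 each). In edgeR its adjusted p was 0.17, or 1.2e-05 once blocked. PSMD1, the large base subunit that binds ubiquitin receptors, was at 165 and 165 TPM in EV and 129 and 137 TPM in FCN3, and it fell with the block (-0.21 ± 0.05, adjusted p = 0.00041, beside 0.17 without it, in edgeR). PSMD7, the inactive partner of the deubiquitinase PSMD14, was at 220.1 and 209 TPM in EV and 228 and 238 TPM in FCN3. It rose with the block (0.22 ± 0.05, adjusted p = 0.00036, beside 0.16 without it, in edgeR). PSMD14 itself had a log2 fold change of 0.10 and passed in neither fit. The chaperones PSMD5, PSMD9 and PSMD10 lay at -0.16, -0.08 and -0.07, and the ubiquitin receptor PSMD4 at -0.02. Over all 4 libraries, lid subunits thus lay toward both ends of the range, PSMD6 below and PSMD7 above.

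The activators cap the core in place of the 19S regulator. PSME1 and PSME2, which form the interferon-inducible PA28αβ cap, were at 189.6 and 168 TPM and at 227 and 219.9 TPM in EV, and at 173 and 142 TPM and at 211 and 191 TPM in FCN3. Their log2 fold changes on normalized counts were -0.08 ± 0.13 and -0.05 ± 0.10, and neither passed. Both depended on the library: PSME1 was at 0.02 without EV replicate 1 and 0.06 without FCN3 replicate 2, and PSME2 at 0.03 without FCN3 replicate 2. PSME3, the nuclear PA28γ cap, was at 237 and 224 TPM in EV and 182 and 179 TPM in FCN3. It fell with the block by 0.25 on the log2 scale (SE 0.05, adjusted p = 2.3e-05 in edgeR, 0.00082 in DESeq2, beside 0.12 in edgeR without the block), and the decrease was alike within the replicate numbers (-0.26 and -0.25 in log2 CPM). Exons of PSME3 overlap BECN1 on the other strand, those of PSME1 overlap EMC9 and those of PSME4 overlap ACYP2. PSME4 was at 35.8 and 31.8 TPM in EV and 33.3 and 31.4 TPM in FCN3 (log2 fold change 0.04 ± 0.10), and PSMF1, the PI31 inhibitor, at 99.4 and 97.9 TPM in EV and 94.4 and 99.9 TPM in FCN3 (0.08 ± 0.08). Both were below 0 on the deposited TPM scale (-0.06 and -0.02) and at 0.005 and 0.04 once FCN3 was left out of the TPM, and neither passed in any fit.

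The difference between replicates was about as large as that between conditions. Over the 40 genes the median absolute difference was 0.08 between replicates and 0.10 between conditions on the log2 scale. Across 8309 genes above a log2 CPM of 4 these values were 0.13 and 0.18. In 18 of the 40 the replicate difference was the larger, beside 5903 of all 14099 tested genes. 26 genes were higher in replicate 1 in both groups, beside 5611 of all 14099. 4 were higher in replicate 2 in both, beside 5007 of all. The replicate difference in EV and that in FCN3 had a correlation of 0.816 across the 40 genes, which share libraries and depth and are not independent, and of 0.807 across 8309 genes above a log2 CPM of 4. Within replicate numbers, 13 genes were higher in FCN3 in both (beside 5880 of all 14099) and 24 lower in both (beside 5428). The median difference was -0.05 in the replicate 1 libraries and -0.07 in the replicate 2 libraries. In normalized CPM the groups did not overlap for 22 of the 40 genes, 7 higher and 15 lower in FCN3, beside 54.5% of all tested genes (28% higher, 26.5% lower). An exact two-sided permutation test of 2 against 2 libraries cannot go below p = 0.333.

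**Figure D3:**
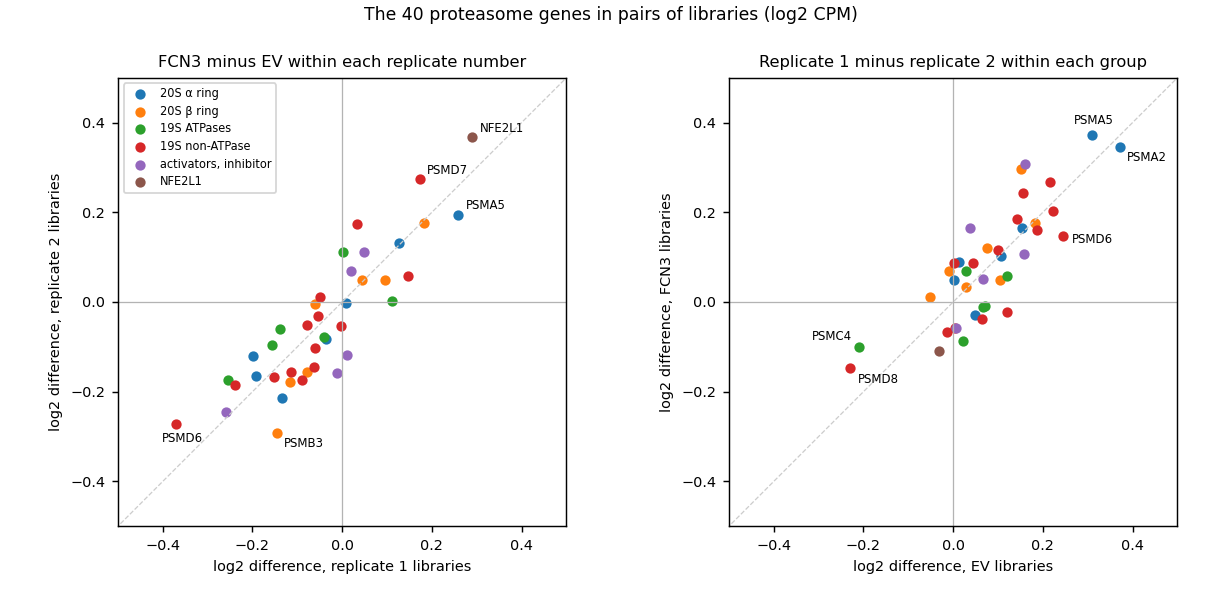
The left panel plots the log2 CPM difference of FCN3 minus EV in the replicate 1 libraries (x) against the replicate 2 libraries (y) for the 40 genes, and the right panel plots replicate 1 minus replicate 2 in EV (x) against FCN3 (y). NFE2L1 (0.29 and 0.37) and PSMD6 (-0.37 and -0.27) stand at the ends on the left, and on the right 26 of the 40 genes lie above 0 on both axes.

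The immunoproteasome subunits, which replace the catalytic subunits after interferon, were minor in A549 cells. PSMB9 was at 22.6 and 24.7 TPM in EV and 12.8 and 11.4 TPM in FCN3, or 0.0375 and 0.0444 of the TPM of PSMB6, which it replaces, in EV and 0.0242 and 0.0218 in FCN3. It had the largest decrease of the proteasome genes of any list, a log2 fold change of -0.84 ± 0.17 (adjusted p = 0.046 in edgeR, 2.5e-07 with the block). PSMB8, which replaces PSMB5, was at 28.7 and 28.8 TPM in EV and 29.8 and 32.4 TPM in FCN3 and passed in no fit (0.22 ± 0.12). In the annotation the start of PSMB9 overlaps that of PSMB8, and its span holds TAP1, both on the opposite strand. PSMB10, which replaces PSMB7, was at 38.3 and 26.6 TPM in EV and 31.3 and 25 TPM in FCN3, with overlapping groups. The thymus subunit PSMB11 and the testis subunit PSMA8 were at 0 TPM in every library.

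Around the particle, 41 genes in 6 lists were examined, of which 39 were tested. 0 of the 39 passed in edgeR without the block, and with it 12 rose and 7 fell (48.7%, beside 36.2% of all tested genes), with a median log2 fold change of -0.01. DESeq2 called 5 of them without the block (beside 7.64%), and 9 higher and 2 lower with it (beside 16%), so that UCHL5, PSMG2, NGLY1, NFE2L3, UBA1, UBA6, RPS27A and UBQLN2 passed with the block in edgeR but not in DESeq2. Among 7 further subunits and bound factors, KIAA0368 (ECM29, which tethers the core to the regulator) rose with the block, from 44.3 and 42.3 TPM to 48.5 and 47.3 TPM (0.25 ± 0.05, adjusted p = 7.1e-05 in edgeR). UCHL5, a deubiquitinase of the regulator, fell with the block, from 56.4 and 52.0 TPM to 45.8 and 41.5 TPM (-0.26 ± 0.06, adjusted p = 0.00044 in edgeR). Its expected counts were fractional in EV replicate 1 (2510.68) and in FCN3 replicates 1 and 2 (1919.06 and 1045.98). Of 7 assembly chaperones and import factors, only PSMG2, which helps to build the α ring, passed with the block. It was at 66.1 and 57.6 TPM in EV and 49.4 and 47.1 TPM in FCN3 (-0.26 ± 0.08, adjusted p = 0.0051 in edgeR), and at -0.15 on the log2 scale without EV replicate 1 and without the block. AKIRIN2, which carries proteasomes into the nucleus, was at 41.4 and 47.0 TPM in EV and 45.7 and 46.5 TPM in FCN3, with a log2 fold change of 0.17 ± 0.11 that did not pass. Without the block AKIRIN2 was at 0.08 without EV replicate 1 and 0.26 without EV replicate 2.

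Shuttle factors bring substrates to the proteasome, and 4 of the 7 in the list passed with the block (beside 36.2% of all tested genes), 2 in each direction, and DESeq2 without the block called 3 (beside 7.64%). ZFAND2A (AIRAP), a stress-inducible proteasome partner, was at 43.0 and 44.7 TPM in EV and 80.9 and 84.4 TPM in FCN3. Its log2 fold change was 1.02 ± 0.11 (adjusted p = 0.011 in edgeR), and it passed with the block (1.6e-15) and in DESeq2 (2.3e-07). With the block ZFAND5 also rose, and UBQLN2, a carrier of ubiquitinated proteins, fell.

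The list of NFE2L1 processing and partners held the most increases of the 6 lists, 6 of 9 with the block (beside 19.1% of all genes called higher), and 1 decrease (beside 17.1%). DESeq2 with the block called 5 higher and 0 lower, beside 16% of all tested genes in either direction. VCP, the ATPase that extracts NFE2L1 and ERAD substrates from the ER, was at 453 and 410.1 TPM in EV and 567 and 497 TPM in FCN3 (log2 fold change 0.41 ± 0.11, adjusted p = 0.094 in edgeR, 6.4e-10 with the block). NFE2L2, the related factor that KEAP1 controls, was at 75.8 and 83.4 TPM in EV and 93.8 and 100.1 TPM in FCN3 (0.39 ± 0.09, adjusted p = 0.069 in edgeR, 2.9e-08 with the block). MAFF, a small MAF partner, was at 5.00 and 5.25 TPM in EV and 8.45 and 10.4 TPM in FCN3 (0.93 ± 0.17, adjusted p = 0.04 in edgeR, 1.4e-08 with the block). NGLY1, MAFG and BACH1, a repressor at the same elements, also rose with the block, whereas the relative NFE2L3, at 29.6 and 22.2 TPM in EV and 22.5 and 18.5 TPM in FCN3, fell with it in edgeR only (-0.23 ± 0.07, adjusted p = 0.0034, or 0.13 in DESeq2). Without the block NFE2L3 was at -0.24 over all 4 libraries, -0.01 without EV replicate 1, -0.43 without EV replicate 2, -0.40 without FCN3 replicate 1 and -0.10 without FCN3 replicate 2. DDI2, the protease that cuts NFE2L1, had a log2 fold change of -0.06. MAFK, another small MAF partner, was at 35.8 and 71.8 TPM in EV and 37.1 and 52.9 TPM in FCN3. Its log2 fold change was -0.15 ± 0.35, and it did not pass with or without the block. In log2 CPM MAFK was higher in FCN3 in the replicate 1 libraries (0.17) and lower in the replicate 2 libraries (-0.36). VCP and NFE2L2 and the other genes beyond the extremes of each list were chosen for mention after their values were seen.

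The list of ubiquitin genes and activating enzymes had 6 members, of which 3 rose and 1 fell with the block (beside 19.1% and 17.1% of all genes). UBB, a polyubiquitin gene, had a log2 fold change of -0.02 and did not pass. Its ubiquitin repeats are nearly identical to those of other genes, so that its value is uncertain, although its expected counts were whole. UBA1, the main activating enzyme, was at 227 and 220.2 TPM in EV and 190.2 and 177 TPM in FCN3 and fell with the block (-0.18 ± 0.05, adjusted p = 0.0021 in edgeR). It was at -0.12 without FCN3 replicate 2 and without the block. UBA6, an activating enzyme, and RPS27A, which encodes ubiquitin fused to a ribosomal protein, were among those that rose.

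Upstream of the proteasome, ERAD genes were much higher in FCN3 cells. Of 22 ERAD genes, 19 had a log2 fold change above 0, 6 passed without the block (beside 0.738% of all genes called higher) and 13 with it (beside 19.1%), all higher, and the median was 0.46. DESeq2 called 11 of them without the block (beside 7.64% of all tested genes) and 11 with it (beside 16%). HERPUD1, an ERAD scaffold named after the values were seen, as was SEL1L, was at 40.8 and 45.8 TPM in EV and 563 and 542 TPM in FCN3, a log2 fold change of 3.78 ± 0.10 (adjusted p = 0.0004 in edgeR). SEL1L, a subunit of the ERAD ligase, was at 32.2 and 28.1 TPM in EV and 146 and 115 TPM in FCN3 (2.21 ± 0.15, adjusted p = 0.0035 in edgeR). No proteasome gene came near these values. The 8 subunits of the CCT chaperonin, another large cytosolic machine of equal subunits, were all below 0, with a median of -0.18. In edgeR 0 were called without the block and 7 lower with it (beside 17.1%). DESeq2 with the block called 4 of these 7 (beside 16% of all tested genes in either direction). The CCT genes lay on one side, whereas in the proteasome 14 lay above 0 and 26 below. Whether the lists differed from each other was not tested.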

How the data were processed

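RNA of 4 A549 libraries, 2 EV and 2 FCN3, was sequenced as stranded mRNA, and the labels gave the group and number of each library. The authors aligned the reads to hg19 with STAR 2.6.1d and estimated abundance with RSEM. The deposited tables hold expected counts per gene, which can be fractional and carry no normalization. They also hold TPM, which the authors' RSEM run scaled for length and depth so that libraries share one total, and FPKM, which the authors scaled likewise and which is in no result here. Tables give transcripts by RefSeq accession, and the strand setting of the counting is not given in the sources used here.

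Expected counts were rounded and fitted over all 14099 genes kept by filterByExpr in edgeR 4.0.16 (R 4.3.3, TMM, quasi-likelihood test, Benjamini-Hochberg adjustment, threshold 0.01). Intervals are 95% from the moderated t distribution, and CPM are TMM-normalized. The replicate number as a block was an alternative in edgeR and in DESeq2 1.42.0. Same-numbered libraries deviated together (correlation of replicate differences 0.807 across genes), but the labels do not say what the number marks. The other settings were RLE factors, FCN3 left out before TMM, no filter, at least 10 counts in every library, an adjusted p of 0.05, limma 3.58.1 on log2(TPM + 1) and log2(TPM + 0.1), and each library left out. limma on TPM with FCN3 left out was added after the data were seen. Scripts were tested on simulated data.

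The members and lists were chosen with earlier results of these data known. Values are named for NFE2L1, the catalytic subunits, activators and inhibitor, the 5 largest and 5 smallest changes, the highest and lowest level, and the extremes of each further list, some of which are not reported here. Gene locations and exon overlaps come from GENCODE on GRCh37, and promoters from RefSeq on GRCh38.p14, with none found for PSMA7, PSMB1, PSMB6, PSMB7 and PSMD4.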

Additional observations from a re-analysis of the deposited data

How the results depend on the processing

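Blocking by replicate number changed the calls most: 5103 genes were called in edgeR and 2257 in DESeq2 with the block, beside 136 without it, and for the proteasome 4 genes higher and 8 lower in edgeR and 1 higher and 2 lower in DESeq2, beside 0 and 0. Of 28 single genes followed, the block moved 19 past the threshold in edgeR and 9 in DESeq2, and turned none. DESeq2 without the block called 1077 genes and an adjusted p of 0.05 called 1014, with 0 proteasome genes in either. Leaving out a library gave 92 to 267 called genes (267 without EV replicate 2), 0 proteasome genes, and a proteasome median of -0.111 to -0.014. On the TPM scale the proteasome median was -0.16 with a pseudocount of 1 and -0.16 with 0.1, and -0.10 with FCN3 left out; the median of all genes moved from 0.02 to -0.07 and -0.09. Leaving out 1 library also moved PSMA1, PSMA5, PSMB3, PSMD6, PSMG2, AKIRIN2, NFE2L3 and UBA1 by over 1.5 times, as given beside each. PSMF1 moved likewise, between 0.052 without FCN3 replicate 2 and 0.107 without FCN3 replicate 1. Values that changed sign, all of genes that passed in no fit, were PSME4 (-0.056 and -0.058 on TPM with pseudocounts of 1 and 0.1, and -0.04 to 0.134 over the fits that leave out a library, below 0 without EV replicate 2 or FCN3 replicate 1 (-0.014)), PSMF1 (-0.022 and -0.023 on TPM; both genes were above 0 with FCN3 left out of the TPM), PSMB6 (-0.091 to 0.03, above 0 without EV replicate 1), PSME1 (-0.243 to 0.065, above 0 without EV replicate 1 or FCN3 replicate 2) and PSME2 (-0.138 to 0.029, above 0 without FCN3 replicate 2). RLE factors, FCN3 left out before TMM, and both filters kept the proteasome calls at 0. Where a group was left with 1 library, its spread was taken from the other group. Depth did not limit the members, the lowest of which had 1041 expected counts.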

Other observations

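PSMB9 shares its chromosomal neighbourhood with the peptide transporter genes of antigen presentation, and 3 genes of antigen presentation and interferon signalling were looked at after its value was seen. TAP1, which lies on the opposite strand within the annotated span of PSMB9, was at 30.1 and 32.0 TPM in EV and 29.2 and 29.4 TPM in FCN3, a log2 fold change of 0.02 ± 0.09 (95% interval -0.21 to 0.25). TAP2 was at 24.9 and 24.3 TPM in EV and 17.8 and 17.1 TPM in FCN3, with a log2 fold change of -0.30 ± 0.11 (adjusted p = 0.17 in edgeR, 0.00018 with the block). IRF1, a transcription factor of interferon signalling, had a log2 fold change of -0.14 ± 0.14. PSMB9 and TAP2 were thus lower in both FCN3 libraries than in both EV libraries in TPM and in normalized CPM, whereas TAP1 and IRF1 overlapped between the groups in CPM but not in TPM.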
